A study of Homo sapiens with 14 samples.

Results

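Expression of 9 antiviral tripartite motif (TRIM) genes, TRIM5, TRIM14, TRIM21, TRIM22, TRIM25, TRIM26, TRIM34, TRIM38 and TRIM56, was examined in U251MG, an established human glioblastoma cell line. The 9 genes were taken by name from tables of 24461 genes, which also held 59 other TRIM genes (PML and MEFV, themselves members of the family, included). RNA-seq was done on 12 libraries in 2 tables, with 3 libraries a group. The first table held control cells, which carry the label WT and the treatment Control, and radioresistant cells, obtained with 30 X-ray fractions of 2 Gy (60 Gy altogether). The second table held the same radioresistant line carrying either the hairpin shNC or shIFI16, a hairpin against IFI16, so both of its groups carry the irradiation. The labels name 1 hairpin against IFI16 and no rescue, and they do not say whether replicates are separate cultures or whether the radioresistant line is 1 clone, so p-values measure only the spread between these libraries. The columns of the tables carry codes, so which column is which group was inferred; low IFI16 goes with that reading for shIFI16, while no gene checks it for the first table. ATAC-seq, which marks open chromatin, was done on 1 control and 1 radioresistant library.

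Most TRIM proteins share a RING ubiquitin ligase domain, a B-box and a coiled coil, and most of the genes described here add a C-terminal domain that binds their target. Many of these genes are induced by interferon through factors such as STAT2 and IRF9, which act at a promoter sequence called the interferon-stimulated response element (ISRE). Some members attack virus particles directly, and others attach ubiquitin to sensors and adaptors of the pathways that detect foreign RNA and DNA, which raises or restrains interferon production.

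The promoter windows of the members are shown first, because the ISRE is the sequence through which this family is known to answer interferon. RefSeq promoter windows (GRCh38.p14) of 300 bases, from 250 before a transcript start to its following 50, were at hand for 8 of 9 members, all except TRIM22. The ISRE core, GAAA followed by any 2 letters and again GAAA, was searched on both strands and matched in 5 of the 8 members. Of all 27305 genes with such windows 4.38% held a match. Up to 30 bases around each match are given 5′ to 3′ on the strand of the gene, with the matched letters in capitals; the capitals may join overlapping matches.
TRIM5: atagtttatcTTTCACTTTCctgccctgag
TRIM14: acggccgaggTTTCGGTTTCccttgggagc
TRIM21: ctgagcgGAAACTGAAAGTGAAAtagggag
TRIM26: cgcctgaTTTCAGTTTCCATTTCgctgccc
TRIM34: gccccaaaaaTTTCACTTTCatttctcagg
The TRIM5 stretch lies at chr11:5685082-5685111 on the minus strand, with the match 27 to 18 bases before the start (-27 to -18), and that of TRIM14 at chr9:98119229-98119258, also on the minus strand (-26 to -17). TRIM21 (chr11:4393663-4393692, minus strand) held 2 overlapping matches from 17 to 32 bases after the start, inside the transcribed region. TRIM26 (chr6:30213578-30213607, minus strand) held 2 overlapping matches at -194 to -179, the farthest upstream of the 5 genes, and the upstream of 2 listed TRIM34 starts (chr11:5624901-5624930, plus strand) held a match at -90 to -81. With 1 letter allowed to differ, TRIM25 and TRIM56 also matched, as did the other TRIM34 start, but so did 37.7% of all genes.
TRIM25: tcgagctaggTTTCGTTTCCtcggcggcct
TRIM56: gtacaattagTTTCAGTTTTgtttcttttc
These stretches lie at chr17:56914033-56914062 on the minus strand and chr7:101085467-101085496 on the plus strand. Both matches in capitals span the start itself (-3 to 6 and -4 to 5). TRIM56 held a further match with 1 letter off from 7 to 16 bases after the start, not in capitals above. TRIM38 had no match under either setting. The interferon-gamma element TTCNNNGAA, searched the same way, matched in 0 of 8 members and in 9.38% of all genes. A match describes letters in the window and was not tested as a binding site.

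Expression was given in TPM (transcripts per 1000000 within a library), a scale that is per length and so allows levels of different genes to be compared, but that keeps no sequencing depth. Between 12361 and 13016 genes reached 1 TPM in a library. Pearson's r of log2(TPM + 1) across tested genes, which are not independent replicates, lay between 0.975 and 0.993 within groups, lowest between control replicates 1 and 3. IFI16, the DNA sensor that the hairpin targets, was highest in radioresistant libraries (250.8, 309 and 243 TPM), against 70.3, 71.1 and 49.6 TPM in control ones, and lowest with its hairpin (7.68, 7.90 and 6.71 TPM), against 125, 140 and 127 TPM with shNC. Of 7 glioma and astrocyte markers, 6 were tested in radioresistant against control cells and all 6 fell; after knockdown 3 of 5 rose (GFAP, FABP7 and SOX2) and 2 fell (VIM and NES). Their summed level was 13662 to 13893 TPM in the control libraries, 5839.9 to 6295 TPM in the radioresistant, 6757 to 7386 TPM in the shNC and 4920.07 to 5733 TPM in the shIFI16 libraries, and their part in the changes of the TRIM genes was not tested. VIM, a filament gene of mesenchymal and glial cells, fell by 0.65 (log2) in radioresistant cells and by 0.49 after knockdown. GFAP, the astrocyte filament gene that is part of the labelled glial identity, lay at 3882 to 4079 TPM in the control libraries but only at 56.2 to 101.8 TPM once radioresistant, at 1.37 to 2.06 TPM with shNC and at 30.1 to 33.03 TPM with shIFI16, and the oligodendrocyte factor gene OLIG2 was near 0 in all groups. Of 10 immune markers, 8 lay under 1 TPM in every library of the first table and 9 in the second, and CD3E, MS4A1 and AIF1 were among those listed at 0 throughout. Of 5 endothelial markers 2 were tested, and CDH5 differed by -2.37 (log2) in radioresistant against control cells and by 1.28 in shIFI16 against shNC cells; its part in the changes of the TRIM genes was not tested.

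All 9 members were higher in radioresistant than in control cells, and the libraries of the 2 groups did not overlap for any of them. They rose by 0.71 (TRIM38) to 2.69 (TRIM22) in log2(TPM + 1), or from 1.67-fold to 6.84-fold between the mean TPM of the groups, with a median log2 change of 1.14 against -0.11 over all genes tested. All 9 passed limma's test (adjusted p under 0.05 over 13127 genes) in the upward direction, where 16.9% of all genes tested did (43.9% in either direction); 21.5% of all genes tested lay higher in every radioresistant library than in any control library. With median-ratio scaling the calls over all genes were 2976 higher and 2926 lower in place of 2220 and 3542, and all 9 members stayed called higher. In these bulk samples, a shift in the mix of cells and a change of RNA per cell cannot be told apart. None fell, and 0 were lower at an unadjusted p under 0.05. Every member was above 1 TPM in all 6 libraries, so none passed the filter on low values through 1 group only. The members were chosen with earlier results of these data known, so the count of 9 is a description.

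Among the neighbouring genes TRIM22, TRIM5 and TRIM34, TRIM22 had the largest change. TRIM22, an antiviral ubiquitin ligase whose gene lies next to TRIM5 (chr11:5689790-5710863), measured 18.2, 16.5 and 13.0 TPM in the 3 control libraries and 118, 126 and 81.9 TPM in the 3 radioresistant ones. Its lowest radioresistant library, replicate 3, was still far above its highest control library. The log2 change was 2.69 (SE 0.180, adjusted p = 1.6e-06, n = 3 each). TRIM5, which recognises the capsid of incoming retroviruses (chr11:5588635-5685074), measured 23.5, 23.3 and 16.2 TPM in the 3 control libraries and 47.4, 50.9 and 39.2 TPM in the 3 radioresistant ones, with replicate 3 the lowest of both groups. Its mean went from 21.0 ± 4.13 to 45.8 ± 6.04 TPM (SD, n = 3), a log2 change of 1.0997 (SE 0.165, limma adjusted p = 4.2e-04). TRIM34, a close relative of TRIM5 (chr11:5619944-5644398), was the lowest member in both groups, with 6.85, 5.64 and 3.82 TPM in the 3 control libraries and 10.2, 10.6 and 7.56 TPM in the radioresistant ones. The ranges stand apart by less than 1 TPM (highest control 6.85, lowest radioresistant 7.56), and the log2 change was 0.72 (SE 0.199, adjusted p = 0.014). Without radioresistant replicate 1 that call ended (adjusted p = 0.0519, range 0.00363 to 0.0519 over the alternatives).

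The TRIM5 span holds the whole of TRIM34 (24455 bases) and of TRIM6 (16842 bases), with TRIM34 on the opposite strand, and TRIM22 begins 4715 bases past its end. The use of strand in the deposited values is not given in the sources used here. Reads of these genes may therefore not have been told apart, and the values of TRIM5, TRIM34 and TRIM6 are uncertain to that extent. An entry for a transcript running from TRIM6 into TRIM34 was listed separately at no more than 0.154 TPM in the 12 libraries. TRIM6, a further ligase of this cluster, had a log2 change of 1.41 (SE 0.157; limma adjusted p = 5.7e-05). It went from 2.50, 2.35 and 1.67 TPM in the control libraries to 7.74, 7.58 and 6.81 TPM in the radioresistant ones.

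TRIM21, the cytosolic antibody receptor also known as the Ro52 autoantigen (chr11:4384897-4393702), measured 9.88, 13.5 and 11.6 TPM in the 3 control libraries and 54.4, 56.0 and 53.0 TPM in the 3 radioresistant ones. The radioresistant libraries lay close together, and its log2 change of 2.14 (SE 0.134, adjusted p = 9.8e-07) was the second largest of the 9. With 11.7 ± 1.83 TPM (SD, n = 3) it was next to last in the order of control levels, and with 54.5 ± 1.54 TPM it stood above TRIM5, TRIM56, TRIM38 and TRIM34 among radioresistant levels.

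TRIM25 and TRIM14, which act on RNA sensing among other roles, both rose. TRIM25, the ligase that ubiquitinates the RNA sensor RIG-I (chr17:56887909-56914049), measured 36.7, 36.8 and 34.8 TPM in the 3 control libraries and 127, 134 and 135 TPM in the 3 radioresistant ones. It was the most abundant member in radioresistant cells, at 132 ± 4.12 TPM (SD, n = 3), and rose by 1.84 (log2, SE 0.102, adjusted p = 3.8e-07). TRIM14, an adaptor that works with MAVS on mitochondria and lacks a RING domain (chr9:98035797-98119222), measured 19.4, 21.5 and 19.3 TPM in the 3 control libraries and 76.9, 88.0 and 74.6 TPM in the 3 radioresistant ones. Its log2 change was 1.94 (SE 0.119, limma adjusted p = 8.1e-07), and its 95% interval (1.68 to 2.202) overlapped that of TRIM25 (1.61 to 2.07). The span of TRIM14 shares 26346 bases with NANS, so its values carry the same doubt about strand.

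None of the remaining members, TRIM56, TRIM26 and TRIM38, changed by more than 1.14 in log2. TRIM56, a ligase linked to the DNA sensing adaptor STING (chr7:101085481-101097967), measured 13.6, 20.1 and 21.6 TPM in the 3 control libraries and 48.1, 35.03 and 41.1 TPM in the 3 radioresistant ones. Both groups were spread, with control replicate 1 low and radioresistant replicate 1 high, and the log2 change was 1.14 (SE 0.181, limma adjusted p = 6.2e-04). TRIM26, a ligase that acts on the interferon factor IRF3 (chr6:30184455-30213406, within the class I HLA region), measured 33.8, 38.9 and 42.7 TPM in the 3 control libraries and 76.9, 69.8 and 77.4 TPM in the 3 radioresistant ones. It had the highest mean of the 9 in control cells and the fourth highest in radioresistant cells, with a log2 change of 0.95 (SE 0.122, adjusted p = 1.5e-04). TRIM38, which restrains signalling by Toll-like and inflammatory receptors (chr6:25962802-25991231), measured 15.2, 16.2 and 10.9 TPM in the 3 control libraries and 23.6, 26.1 and 20.7 TPM in the 3 radioresistant ones. Its change of 0.71 (log2, SE 0.164, adjusted p = 0.0055) lay beside that of TRIM34 at the low end of the 9 genes, in an order that turned with median-ratio scaling (0.829 for TRIM38 and 0.826 for TRIM34), and its 95% interval (0.35 to 1.07) did not reach those of TRIM22 (2.29 to 3.09), TRIM21 (1.84 to 2.44), TRIM14 or TRIM25.

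**Figure D1:**
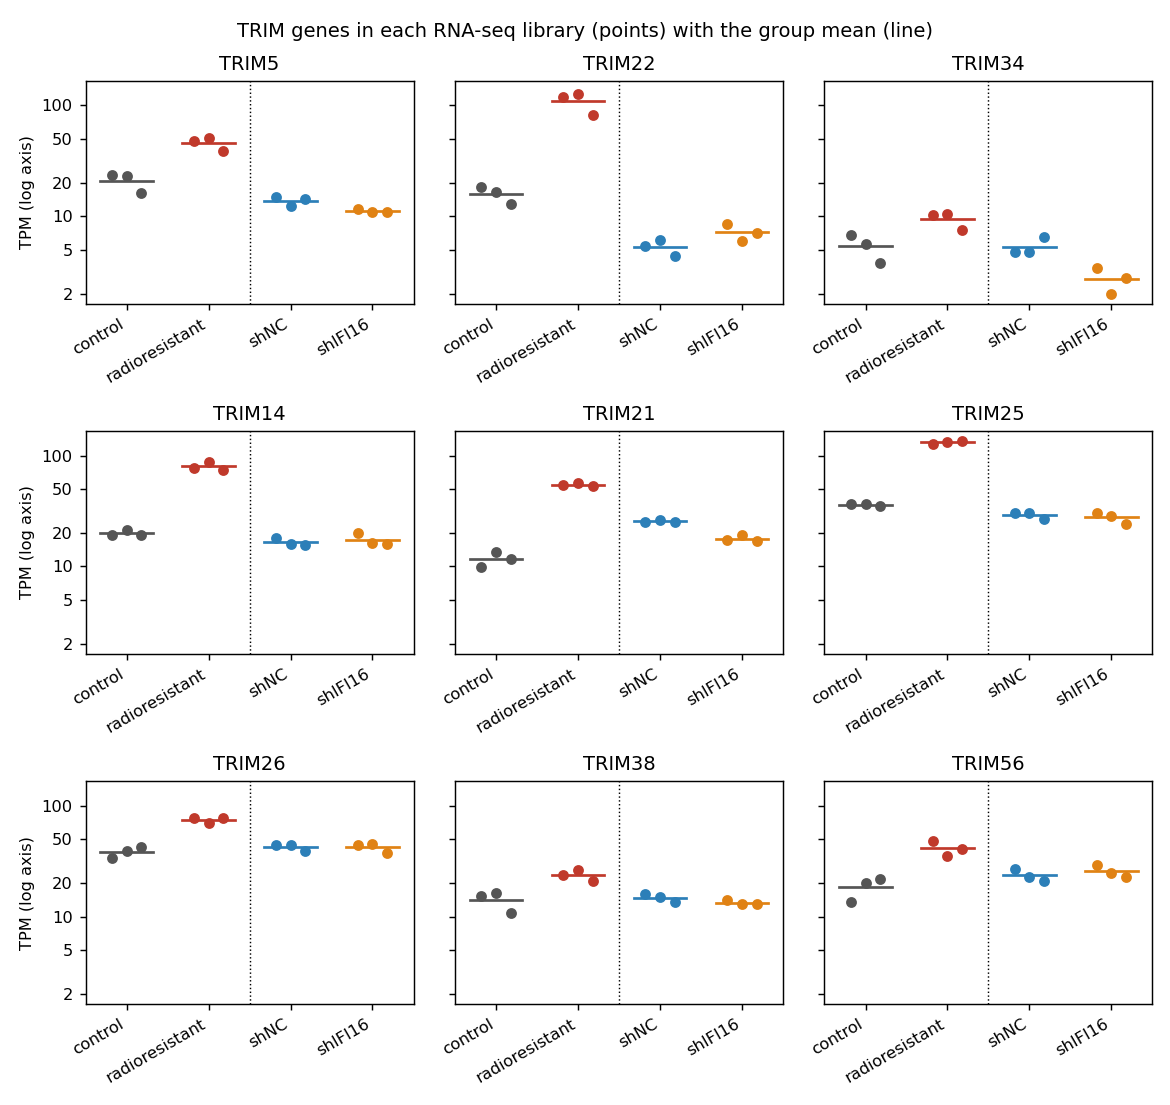
TPM of each of the 9 genes (log axis) in the 12 RNA-seq libraries, with points for libraries in the order of replicates 1 to 3 and a line for the group mean; the dotted line parts the 2 tables, which were normalized separately. All radioresistant points lie above all control points of the same gene, while shNC and shIFI16 points lie apart only for TRIM5, TRIM21 and TRIM34.

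The order of levels differed between the groups of the first table. In control cells TRIM26 (38.4 ± 4.45 TPM) and TRIM25 (36.1 ± 1.11 TPM) were highest and did not differ beyond their spread, TRIM34 was lowest at 5.43 ± 1.52 TPM, and every pair of neighbours from TRIM5 down through TRIM14, TRIM56, TRIM22 and TRIM38 to TRIM21 overlapped. In radioresistant cells the order was TRIM25, TRIM22 (108.7 ± 23.6 TPM), TRIM14 (79.8 ± 7.15 TPM), TRIM26 (74.7 ± 4.25 TPM), TRIM21, TRIM5, TRIM56 (41.4 ± 6.53 TPM), TRIM38 (23.5 ± 2.71 TPM) and TRIM34 (9.46 ± 1.66 TPM). There TRIM22 overlapped TRIM14, TRIM14 overlapped TRIM26 and TRIM5 overlapped TRIM56, and the other neighbours stood apart. The summed level of the 9 genes was 174 to 192 TPM in control and 529.9 to 597 TPM in radioresistant libraries.

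Knockdown of IFI16 in radioresistant cells was followed by changes in both directions. Of the 9 members 3 fell (TRIM21, TRIM34 and TRIM5), 1 rose (TRIM22) and 5 did not pass limma's test over 12567 genes, where 16.3% of all genes tested were called lower, 16.6% higher and 32.9% in either direction. The median log2 change of the members was -0.07, against 0.02 over all genes tested. The calls of TRIM5 and TRIM22 lay close to the threshold.

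TRIM21 measured 25.4, 26.3 and 25.3 TPM in the 3 shNC libraries and 17.1, 19.2 and 16.9 TPM in the 3 shIFI16 ones, with no overlap; 21.4% of all genes tested lay lower in every shIFI16 library. It fell by 0.51 on the log2 scale (SE 0.0905, limma adjusted p = 4.3e-04), to 0.690 of its shNC mean, and the call held under all 13 alternatives (adjusted p 2.6e-05 to 0.0044). TRIM34 measured 4.76, 4.75 and 6.50 TPM in the 3 shNC libraries and 3.43, 2.01 and 2.75 TPM in the 3 shIFI16 ones, and fell by 0.77 (SE 0.156, adjusted p = 0.0014), to 0.512 of its shNC mean. It held in all 13 alternatives too (adjusted p 4.9e-05 to 0.0198), but rests on low levels, where the added 1 TPM shrinks a change, and on a span that lies inside TRIM5.

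TRIM5 measured 15.1, 12.4 and 14.2 TPM in the 3 shNC libraries and 11.7, 11.01 and 10.9 TPM in the 3 shIFI16 ones. The groups did not overlap, and the fall of 0.28 on the log2 scale (SE 0.103) had an adjusted p = 0.045 by limma. That call was lost in 5 of 13 alternatives: with no filter (adjusted p = 0.0702), and without shNC replicate 1 (0.185), shNC replicate 3 (0.132), shIFI16 replicate 2 (0.135) or shIFI16 replicate 3 (0.0802), within a range of 0.0102 to 0.185. TRIM22 was the member that went up, from 5.43, 6.14 and 4.35 TPM in shNC to 8.53, 6.02 and 7.07 TPM in shIFI16 libraries. Its groups overlapped, while 23.4% of all genes tested lay higher in every shIFI16 library, as shIFI16 replicate 2 lay below shNC replicate 2. The log2 change of 0.38 (SE 0.139, adjusted p = 0.046) was no longer called in 6 of 13 alternatives: with no filter (0.128), with limma without trend and robust fitting (0.0766), and without shNC replicate 1 (0.0593), shNC replicate 3 (0.21), shIFI16 replicate 1 (0.134) or shIFI16 replicate 3 (0.0731), within a range of 0.0211 to 0.21.

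For the 5 members that did not pass, the intervals bound what could have gone unseen. TRIM25 measured 30.5, 30.4 and 26.8 TPM in the 3 shNC libraries and 30.6, 28.6 and 24.4 TPM in the 3 shIFI16 ones (log2 change -0.07, 95% interval -0.28 to 0.14). TRIM14 stood at 18.2, 15.9 and 15.7 against 19.97, 16.3 and 16.1 TPM (0.06, interval -0.16 to 0.29), and TRIM26 at 44.2, 44.3 and 39.0 against 44.1, 45.4 and 37.7 TPM (-0.01, interval -0.20 to 0.18). All groups overlapped here. TRIM38 stood at 15.9, 15.2 and 13.5 against 14.3, 12.9 and 12.9 TPM (-0.14, interval -0.36 to 0.07), and TRIM56 at 26.8, 22.9 and 21.0 against 29.1, 24.8 and 22.8 TPM (0.11, interval -0.12 to 0.34). The smallest adjusted p of these 5 was 0.30 (TRIM38). CD68, a lysosomal gene of macrophages and the only immune marker tested, went from 38.5 to 15.6 TPM on average (log2 change -1.25, limma adjusted p = 5.5e-08). The summed immune markers were 37.8 to 40.6 TPM in shNC and 14.3 to 18.1 TPM in shIFI16 libraries. That sum is nearly all CD68, as the other 9 markers lay under 1 TPM in every library of the second table. The part of the CD68 fall in the changes of the TRIM genes was not tested.

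**Figure D2:**
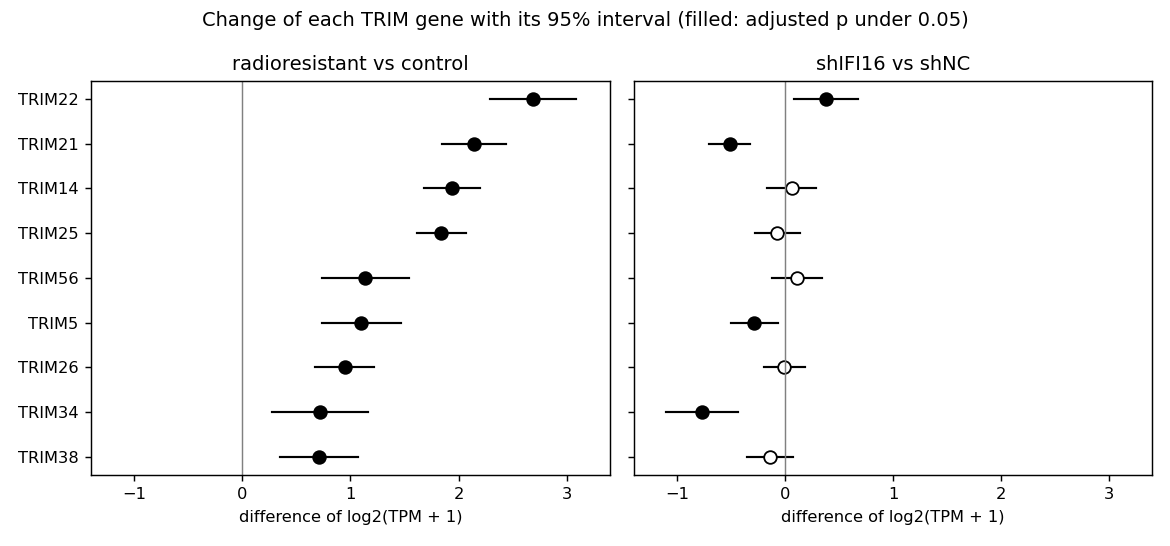
Difference of log2(TPM + 1) for each of the 9 genes with its 95% interval from limma, radioresistant minus control on the left and shIFI16 minus shNC on the right; filled points passed an adjusted p of 0.05. All 9 intervals lie above 0 on the left, from TRIM38 (0.71) to TRIM22 (2.69), and on the right TRIM34 (-0.77), TRIM21 (-0.51) and TRIM5 (-0.28) lie below 0 and TRIM22 (0.38) above it.

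Both hairpin groups are labelled radioresistant, but their levels were not those of the radioresistant cells of the first table. TRIM22 averaged 5.31 ± 0.902 TPM in shNC cells against 15.9 ± 2.69 TPM in control and 108.7 ± 23.6 TPM in radioresistant cells (SD, n = 3 each), and it shared the low end of the shNC order with TRIM34 (5.34 ± 1.007 TPM), which it overlapped, while TRIM26 was first at 42.5 ± 3.02 TPM. TRIM25 averaged 29.2 ± 2.13 TPM and TRIM14 averaged 16.6 ± 1.38 TPM in shNC cells, both below their control means, while TRIM21 at 25.7 ± 0.555 TPM lay between its control and radioresistant means. The summed level of the 9 genes was 166 to 186 TPM in shNC and 151 to 179 TPM in shIFI16 libraries. The tables were normalized separately and these levels were not tested across them, so the hairpin vector, the table and the culture cannot be told apart.

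In the rest of the TRIM family, calls went both ways in radioresistant cells. Of the 59 other TRIM genes 32 were tested, of which 8 rose (25%, against 16.9% of all genes tested), 9 fell (28.1%, against 27.0%) and 15 did not pass, with a median log2 change of 0.04. By size the largest changes were those of TRIM2, a ligase of neurons, which fell by 1.78 on the log2 scale (adjusted p = 1.8e-05) with group means of 104 and 29.9 TPM; PML, the organiser of nuclear bodies and an interferon-induced gene, which rose by 1.42 (adjusted p = 2.9e-06), from 51.9 to 141 TPM; TRIM6 (1.41, above); TRIM9, a brain ligase, which fell by 1.06 (adjusted p = 1.2e-04); and TRIM7, which rose by 1.04 (adjusted p = 4.0e-04). The count of rises was 5 without control replicate 1 and 5 without radioresistant replicate 1. Over all genes, leaving out single libraries gave 1652 to 2760 rises, against 2220 with all libraries. After IFI16 knockdown 7 of 32 rose (21.9%, against 16.6% of all genes tested), 5 fell (15.6%, against 16.3%) and 20 did not pass (median 0.04), and the largest changes were those of TRIM9 (0.88, adjusted p = 4.7e-05), TRIM52 (0.58, adjusted p = 5.4e-04), TRIM16 (0.48, adjusted p = 0.0060), TRIM37 (0.43, adjusted p = 0.0026) and TRIM7 (-0.42, adjusted p = 0.0040). The falls numbered 1 without shNC replicate 1 or shIFI16 replicate 2, and 2 without shNC replicate 2, shNC replicate 3 or shIFI16 replicate 3. The rises numbered 4 without shIFI16 replicate 2. Over all genes, leaving out single libraries here gave 1577 to 2300 falls, against 2052, and 1399 to 2421 rises, against 2088.

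The lists of pathways on which the TRIM proteins act are read against all genes tested, of which 16.9% rose and 27.0% fell in radioresistant cells, and 16.6% rose and 16.3% fell after knockdown. In radioresistant cells 4 of 12 tested RNA sensing genes rose (33.3%) and 2 fell (16.7%; median 0.05). The sensors IFIH1 (2.80, limma adjusted p = 1.2e-06), DDX58, which encodes RIG-I, the target of TRIM25 (2.48, adjusted p = 2.7e-05), and DHX58 (1.40, adjusted p = 9.0e-05) rose with ZC3HAV1, an antiviral RNA-binding partner of TRIM25 (0.49, adjusted p = 0.019). MAVS, the adaptor with which TRIM14 works, fell by 0.34 (adjusted p = 0.039), as did TANK (-0.52). Of 15 tested genes of DNA sensing and Toll-like receptors 6 rose (40.0%) and 2 fell (13.3%; median 0.25), among them IFI16 (2.06), the RNA receptor TLR3 (1.36, adjusted p = 4.0e-04) and the kinase regulator IKBKG (0.55), while the kinase gene IKBKB fell by 1.16 (adjusted p = 5.3e-05) and the STING gene TMEM173 by 0.73. MB21D1, which encodes the sensor cGAS, was too low to test.

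Of 13 tested ubiquitin partners, 3 rose (23.1%) and 4 fell (30.8%) in radioresistant cells (median -0.22), shares near those of all genes tested. UBE2L6 and UBA7, the conjugating and activating enzymes of the ubiquitin-like modifier ISG15, rose by 3.68 (limma adjusted p = 3.1e-08) and 2.74 (adjusted p = 1.9e-06), and the cyclophilin gene PPIA, whose product binds the capsid that TRIM5 recognises, rose by 0.53. Among ubiquitin-conjugating enzymes with which TRIM ligases work, UBE2N had a log2 change of -0.02 (adjusted p = 0.92), UBE2D2 of 0.13 (0.41) and UBE2W of -0.53 (0.15), and UBE2D1 fell by 0.53 (adjusted p = 0.0090) and UBE2V1 by 0.47 (adjusted p = 0.0074). VCP, the unfoldase that TRIM21 uses to destroy antibody-bound virus, fell by 0.41 (adjusted p = 0.0075).

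Of 12 interferon signalling genes 4 were called higher in radioresistant cells (33.3%) and 3 lower (25%, near the share of all genes tested; median 0.00). Among the raised genes were the transcription factors IRF9 (1.34, adjusted p = 2.9e-05), IRF1 (1.23, adjusted p = 3.2e-05) and STAT2 (0.79, adjusted p = 8.7e-04), and the lowered ones were the receptor subunits IFNAR1 (-0.58), IFNAR2 (-0.60) and IFNGR2 (-0.34). After knockdown 7 of these 12 fell by limma (58.3%, against 16.3% of all genes tested) and 0 rose (against 16.6%). None rose at an unadjusted p under 0.05 either, and the median was -0.26. IRF1 (-0.67, limma adjusted p = 8.1e-06) and TYK2 (-0.45, adjusted p = 4.9e-04) were the first by p. Of the RNA sensing genes 5 of 12 fell by limma (41.7%) and 0 rose, again also at an unadjusted p under 0.05 (median -0.27). The falls were led by DDX58 (-0.80, limma adjusted p = 9.1e-07) and IFIH1 (-0.62, adjusted p = 1.4e-05). DNA sensing and Toll-like genes fell in 4 of 15 cases (26.7%) and rose in 2 (13.3%). The target IFI16 (-3.97) and TICAM1 (-0.55, limma adjusted p = 1.6e-04) were among the falls. Ubiquitin partners rose in 3 (23.1%) and fell in 3 (23.1%) of 13. Among the falls were UBA7 (-1.05) and UBE2L6 (-0.73), and among the rises UBE2N (0.29) and UBE2E1 (0.26).

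**Figure D3:**
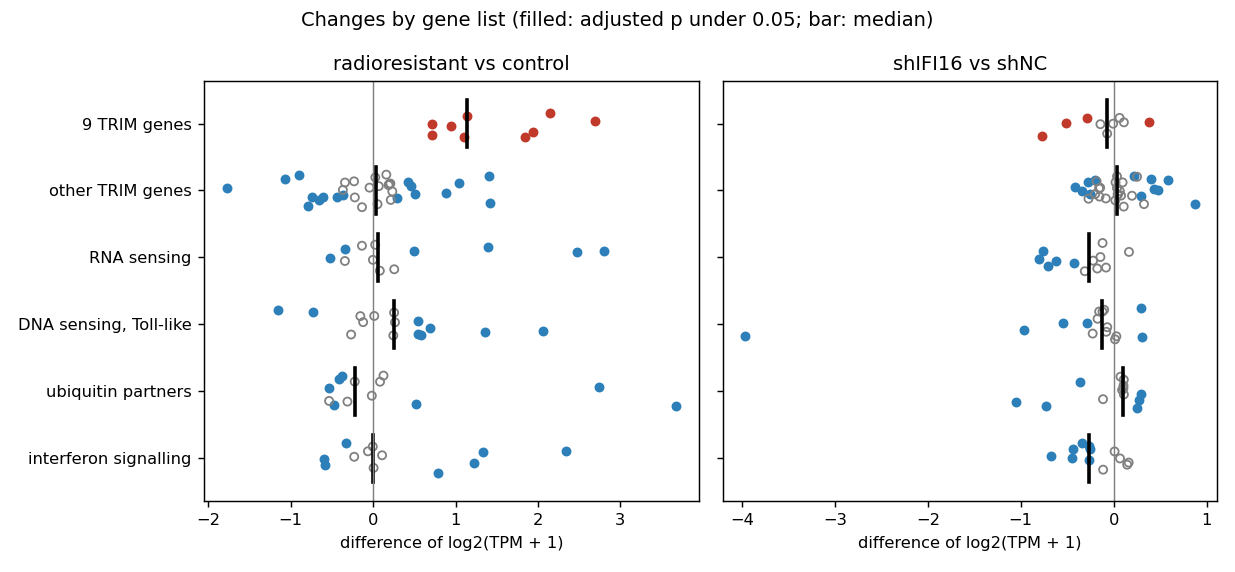
Differences of log2(TPM + 1) of single genes by list, radioresistant minus control on the left and shIFI16 minus shNC on the right, with a bar at the median of each list; filled points passed an adjusted p of 0.05. The 9 TRIM genes have a median of 1.14 on the left and -0.07 on the right, and the other TRIM genes 0.04 on both sides.

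Over the 12 libraries, with each gene centred and scaled within its table, the members followed one another to different degrees. Pearson's r of a member with the mean of the other 8 ran from 0.534 (TRIM22) and 0.595 (TRIM34) to 0.867 (TRIM38) and 0.915 (TRIM25). The closest pair was TRIM25 and TRIM26 (r = 0.932) and the least alike was TRIM21 and TRIM22 (r = 0.104). Among 12350 other genes tested in both tables, those most like the mean of the 9 members included FERMT1 (r = 0.959), HMGXB3 (0.947), SLC7A1 (0.946) and SLC8A1 (0.942). These values are given as a description, since the 12 points share 2 tables. In the first table the libraries of the 2 groups did not overlap for any member. For the uncalled members TRIM14, TRIM25, TRIM26, TRIM38 and TRIM56 the hairpin groups overlapped, with log2 changes from -0.14 (TRIM38) to 0.11 (TRIM56). Their spread among the hairpin libraries therefore lay among replicates as well as between groups, and r does not rest on the group difference alone.

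At the chromatin level, 3 of the 8 members with a listed start had an ATAC-seq summit within 1000 bases in radioresistant cells and 1 in control cells. Among all 16145 genes with a listed start that share was 24.9% in the radioresistant library and 4.57% in the control library, whose deposited summit lists held 12877 and 2454 summits. The radioresistant summits lay 22 bases before the TRIM25 start (chr17:56914071, score 6.07), 237 bases inside TRIM5 (chr11:5684837, score 5.38) and 84 bases before the TRIM26 start (chr6:30213490, score 4.43), where the score is the -log10 q-value that the authors' peak caller gave. The control summit lay 185 bases before the TRIM26 start (chr6:30213591, score 4.63), inside the stretch of its ISRE match shown above. The other members had no summit near a start in either list: for radioresistant cells the nearest lay 7991 bases away for TRIM56, 23495 for TRIM14, 52582 for TRIM34, 70629 for TRIM38 and 214567 for TRIM21, and for TRIM22, which has no listed start, 4953 bases from the gene span. For TRIM34 and TRIM22 that nearest summit was the same one, the summit inside TRIM5 (chr11:5684837). TRIM14 and TRIM21 had large rises in RNA with no summit near their starts. With 1 library a condition and lists of such unequal length there is no test, and a missing summit does not show closed chromatin.

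**Figure D4:**
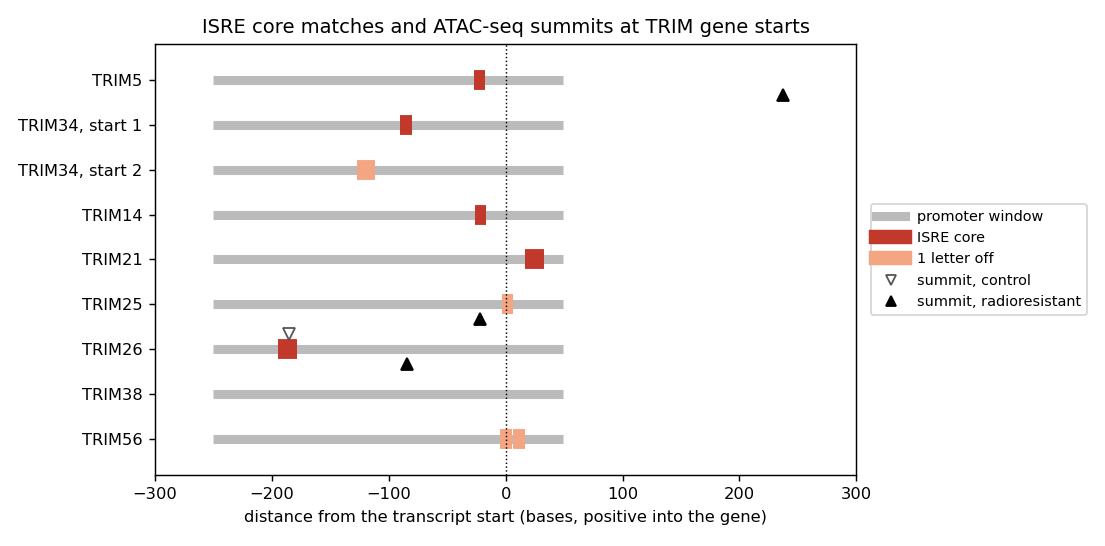
Promoter windows (grey, 250 bases before to 50 after each listed start) of 8 members with ISRE core matches (red), matches with 1 letter off (light) and ATAC-seq summits of the control (open) and radioresistant (filled) libraries within 300 bases, against the distance from the start in bases. Red marks stand at TRIM5, TRIM14, TRIM21, TRIM26 and the first TRIM34 start, and summits at TRIM5, TRIM25 and TRIM26.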

How the data were processed

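RNA-seq values were deposited as 2 tables named as counts, but the authors' values are TPM, because columns each total 1000000 and hold fractions. Per the submitters' processing notes, the tools were TopHat, featureCounts, Cufflinks 2.2.1 and Trim Galore 0.6.6, with hg38; for strand, annotation and the step that made the TPM, the answer is not given in the sources used here. Table columns carry codes. They were read as control (UN), radioresistant (UR), shNC (URN) and shIFI16 (URS) from the ATAC-seq file prefixes and the labels; low IFI16 goes with URS, and UN and UR have no such check. The deposited ATAC-seq summits carry a -log10 q-value by the layout of the file, with MACS2 2.1.4, Bowtie2 2.2.5 and SAMtools 1.10 in the submitters' processing notes.

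Genes reaching 1 TPM in 3 or more of a table's 6 libraries were tested with limma 3.58.1 (R 4.3.3; trend and robust) on log2(TPM + 1), within each table, two-sided, with Benjamini-Hochberg adjustment over all genes tested; log2 changes understate those of low genes. The 28 entries with names turned into dates were left out. The script was tested on simulated data. Alternatives were a pseudocount of 0.1, no filter and a filter of 1 TPM in all 6 libraries, median-ratio and quantile scaling, plain limma, a replicate block, single libraries left out, and other distances and scores of summits. Members and lists were chosen with earlier results of these data known. Other TRIM genes were named by the 5 largest called changes, list genes by smallest p (up to 4), and the remaining list genes (MAVS, TANK, TMEM173, MB21D1, PPIA, UBE2N, UBE2D1, UBE2D2, UBE2W, IFNAR1, IFNAR2 and IFNGR2) after their values were seen. Some genes that these rules name are not reported here.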

Additional observations from a re-analysis of the deposited data

How the results depend on the processing

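All 9 rises in radioresistant cells kept their direction under the 13 alternatives, and 116 of 117 values kept their call, TRIM34 without radioresistant replicate 1 being the exception. After knockdown 101 of 117 kept direction and call, 11 lost the call (TRIM5 and TRIM22) and 5 of uncalled members changed sign when a library was left out: TRIM14 to -0.032 (range -0.032 to 0.127), TRIM25 to 0.0199 (range -0.139 to 0.0199) and TRIM26 to 0.0228, 0.0244 and 0.0738 (range -0.065 to 0.0738). The median of the 9 members in radioresistant cells moved to 1.26 with median-ratio scaling, which shifted the median of all genes from -0.11 to 0.01 and the calls over all genes from 2220 higher and 3542 lower to 2976 and 2926. Leaving out single libraries gave medians of 1.07 to 1.26 there and -0.139 to 0.0199 after knockdown, 8 to 9 members raised there and 0 to 1 raised and 2 to 3 lowered after knockdown. For other TRIM genes it gave 5 to 9 raised and 6 to 11 lowered in radioresistant cells. After knockdown it gave 4 to 8 of them raised and 1 to 5 lowered. The calls over all genes moved as well. Of 13127 genes tested in radioresistant cells, 1652 to 2760 were raised and 2468 to 4638 lowered. Of 12567 tested after knockdown, 1399 to 2421 were raised and 1577 to 2300 lowered. With no filter, and with limma without trend and robust fitting, 0 members were called higher after knockdown (1 at an unadjusted p under 0.05 in both) and 3 other TRIM genes lower. The cause was not tested. With summits of a score of at least 5 the control list had 0 members with a summit (0.83% of all genes) and the radioresistant list 2, without TRIM26 (10.257% of all genes). With the replicate number as a block, 9 members rose in radioresistant cells, and 3 fell and 1 rose after knockdown; no member's call changed. Same-numbered radioresistant and control libraries' deviations from group means had correlations of -0.377 to 0.245, and other pairs of -0.429 to 0.394. Same-numbered hairpin libraries had correlations of 0.0278 to 0.215, and other hairpin pairs of -0.231 to 0.148. Not every library correlated best with its own number, and whether numbers pair the hairpin libraries was not settled. All genes called after knockdown were 3001 higher and 2609 lower with the block, against 2088 and 2052. TPM keeps no depth, so counting error is unknown.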

Other observations

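Across other genes with a promoter window, those with the ISRE core were called higher more often in radioresistant cells: 115 of 393 tested (29.3%) against 1519 of 9390 without it (16.2%), with median log2 changes of 0.02 and -0.11. After IFI16 knockdown 100 of 385 genes with the core were called lower (26.0%) against 1441 of 8998 without it (16.0%), and 15.6% and 16.7% were called higher. These shares leave out the 9 TRIM genes and are given as a description, with no test.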
